A study of Mus musculus with 4 samples.

Results

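The genes of the cytosolic ribosome were described in RNA-seq of mouse bone marrow progenitors with and without the Polycomb protein Mel18. Members were the protein coding rows of the deposited gene table whose symbol names a protein of the small subunit (Rps), of the large subunit (Rpl) or of its stalk (Rplp0, Rplp1, Rplp2), or is Rpsa, with the Rps6 kinase genes left out. This rule found 82 of the 15607 genes, and it used no measured value. The table itself holds few genes without counts: 15603 to 15606 of its genes had counts in a given library. They were 31 small subunit genes, 46 large subunit genes and 5 duplicated relatives whose names mark them as paralogues (Rpl3l, Rpl7l1, Rpl22l1, Rpl39l and Rps27l). The GENCODE M21 annotation of mm10 holds 83 genes that fit the rule, and the other one, Rpl10l, was not analysed here.

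Cells negative for lineage markers were sorted from bone marrow, and the labels call them hematopoietic stem and progenitor cells. Wild type mice 1 and 3 gave a library each, as did mice 5 and 6, which carried a conditional Mel18 knockout directed to the blood system. The study asked whether Mel18, a subunit of Polycomb repressive complex 1 encoded by Pcgf2, alters transcription in these cells. The sources used here give neither age, strain and Cre driver nor the deleted stretch of the gene. RNA was amplified with a low-input full-length method, SMART-Seq v4, and libraries were made with Nextera XT, a chemistry that does not record strand.

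A ribosome joins a small subunit, which decodes the mRNA, to a large subunit, which forms the peptide bond, and each subunit holds a single copy of nearly every ribosomal protein. Most vertebrate mRNAs for these proteins begin with a C followed by an uninterrupted run of pyrimidines, the terminal oligopyrimidine (TOP) motif, through which mTORC1 and the RNA binding protein Larp1 control their translation. In blood, loss of 1 copy of many of these genes causes Diamond-Blackfan anemia in humans, a failure of red cell precursors, and each parent gene has left processed pseudogenes, copies of its mRNA pasted back into the genome.

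The start sites are shown first because the TOP motif is defined there. A run of pyrimidines opening with C lay at the annotated start in only 22 of 62 matched members (35.5%). The windows below that hold such a run were picked as examples and are not typical of the members. The windows below run from 15 bases before to 15 bases from the RefSeq start (GRCm38.p6), 5′ to 3′ on the gene's strand, and capitals mark the pyrimidine run that begins with C and lies at the start. Rpl7a is at chr2:26910792-26910821 on the plus strand, Rpl35 at chr2:39005117-39005146 on the minus strand and Rps6 at chr4:86857353-86857382 on the minus strand. Rplp2 is at chr7:141447636-141447665, Rpl38 at chr11:114668565-114668594 and Rps24 at chr14:24490663-24490692, all on the plus strand. Rps13, at chr7:116334176-116334205, and Rpl11, at chr4:136053379-136053408, both on the minus strand, are shown because they had the lowest p-values in the comparison of genotypes. Their windows hold no run that meets this definition at the annotated start.
Rpl7a: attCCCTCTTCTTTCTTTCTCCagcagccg
Rpl35: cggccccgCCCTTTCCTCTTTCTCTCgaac
Rps6: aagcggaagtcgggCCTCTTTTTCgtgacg
Rplp2: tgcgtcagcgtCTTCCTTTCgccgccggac
Rpl38: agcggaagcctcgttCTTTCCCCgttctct
Rps24: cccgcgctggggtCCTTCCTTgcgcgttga
Rps13: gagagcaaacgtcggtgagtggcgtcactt
Rpl11: ctgacccataaggccacggggccggaagtc

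Within 15 bases on either side of a start, the longest runs were 19 bases, in Rpl7a and Rpl27a. Promoter sequence was matched for 62 of the 82 members. A run of 8 or more pyrimidines opening with C lay within 50 bases of the start in 52 of the 62 (83.9%), against 31.99% of all 27025 genes of the RefSeq table. A C followed by at least 4 pyrimidines lay on the annotated start, or began right after it, in 22 (35.5%), against 11.6%. The letters CCGGAAG, the core recognised by Ets family factors such as Gabpa, were found on either strand in 26 promoters (41.9%), against 9.93% of all. CGCCATNTT, recognised by Yy1, was found on either strand in 7 (11.3%), against 2.76%. The letters TATAAA stood upstream of 1 start (1.61%), against 3.15%. These features were chosen after the data were seen, and a match describes letters, not binding.

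The coding sequences are shown for a different reason: their copies elsewhere in the genome bear on how reads can be counted. The first 60 coding bases of 4 parent genes follow (GENCODE M21 on mm10), with the closest processed pseudogene where one is shown, and capitals in a copy mark bases that differ from the parent. For Rpl8 only 1 pseudogene was compared, and it did not come within 5 differences over these bases. Gm5835 differs from Rpl4 at 1 base, Gm11942 from Rplp1 at 2, and Rps13-ps1 does not differ from Rps13.
Rpl8: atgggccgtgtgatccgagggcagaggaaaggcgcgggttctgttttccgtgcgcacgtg
Rpl4: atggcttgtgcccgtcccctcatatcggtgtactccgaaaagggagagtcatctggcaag
Gm5835: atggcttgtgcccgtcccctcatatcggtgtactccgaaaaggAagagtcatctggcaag
Rplp1: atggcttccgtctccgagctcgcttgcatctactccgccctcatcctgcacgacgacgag
Gm11942: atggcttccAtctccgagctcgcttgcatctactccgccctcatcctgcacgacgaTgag
Rps13: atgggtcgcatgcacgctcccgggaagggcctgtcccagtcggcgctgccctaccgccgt
Rps13-ps1: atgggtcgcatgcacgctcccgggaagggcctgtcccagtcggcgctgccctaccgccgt

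The 2 wild type libraries held 35599564 and 37197363 counts (mice 1 and 3) and the 2 knockout libraries 46240864 and 44642002 (mice 5 and 6). Pcgf2, the targeted gene, had 210, 158, 303 and 321 counts in mice 1, 3, 5 and 6, so the libraries labelled knockout did not have less of it. Its log2 fold change was 0.44 ± 0.20 (SE) with an edgeR quasi-likelihood adjusted p of 0.575. As this is a count over all exons it checks no deletion of a part, and wild type and knockout below refer to the labels. All 12 stem and progenitor markers were detected, with summed levels of 1651 to 1833 CPM (counts scaled to library size) in wild type and 1621 to 1712 CPM in knockout. The 12 neutrophil markers summed to 20524 and 29158 CPM in wild type and to 14474 and 14688 CPM in knockout. The 10 B and plasma cell markers summed to 4913 CPM in wild type mouse 1 and to between 2316 and 2887 CPM in the other 3 libraries. Ighm and Jchain, at 2190 and 2521 CPM in mouse 1, made up most of that sum, and mouse 1 was the highest library in 4 of the 10 genes. The 11 megakaryocyte markers summed to 337 and 320 CPM in wild type and to 490 and 438 CPM in knockout. Stroma and bone markers, 12 of 13 measured, summed to 134 and 246 CPM in wild type and to 760 and 717 CPM in knockout. The part of these cells in any result below was not tested, and in bulk RNA fewer cells of a type and less RNA per cell cannot be told apart.

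Ribosomal protein genes took 2.05% of all counts in mouse 1 and 1.88% in mouse 3, both wild type, and 2.05% in mouse 5 and 1.92% in mouse 6, both knockout. Each genotype thus had a library near the upper value and a library near the lower, and the groups overlapped. With the exact 95% binomial interval, which covers counting error only, the share was 2.046% to 2.055% in mouse 1 and 1.877% to 1.886% in mouse 3. The means were 1.97% ± 0.119 in wild type and 1.99% ± 0.0914 in knockout (SD, n = 2; two-sided exact permutation p = 0.667, where 0.333 is the smallest possible). Members were unequal contributors, and the 10 genes with the most counts held 61.5% to 62.9% of the member counts of a library.

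Per kilobase, the members covered a wide range. The level used is RPKM, CPM divided by the deposited gene length in kilobases, averaged over the 4 libraries. Rplp1, an acidic stalk protein that helps recruit elongation factors, was highest, at 1837 and 1941 RPKM in wild type and 2157 and 2034 RPKM in knockout. Rpl8 and Rpl4, proteins of the large subunit's core, followed with mean levels of 1360 and 1135 RPKM. Rps15, a protein of the head of the small subunit, came next at 948 RPKM. Of all protein coding genes, 12 members were among the 100 highest per kilobase.

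The lower end held genes whose proteins are equally part of each ribosome. Rps6, the small subunit protein phosphorylated by S6 kinases, was at 2.53 and 2.26 RPKM in wild type and at 1.98 and 2.51 RPKM in knockout. Rpl38, which in mouse is needed for translation of a subset of Hox mRNAs, was at 2.17 and 2.29 RPKM in wild type and 2.08 and 1.82 RPKM in knockout. Rpl23a, which lies near the exit of the peptide tunnel, was at 1.61 RPKM on average, and Rpl24, which forms a bridge between the subunits, was at 0.737 RPKM. Rpl24 had 34, 26, 28 and 35 counts in mice 1, 3, 5 and 6, so its values carry a large counting error.

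The median member was at 38.9 RPKM. Of the 77 members that are not paralogues, 23 were at 100 RPKM or more, 31 between 10 and 100, and 23 under 10. The highest of these 77 was 2703 times the lowest. Neighbours in this order were often not separated by their spread. Rpl4, at 1092 to 1185 RPKM, and Rps15, at 898 to 1021 RPKM, did not overlap in any library, whereas Rps6 and Rpl38 did.

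**Figure D1:**
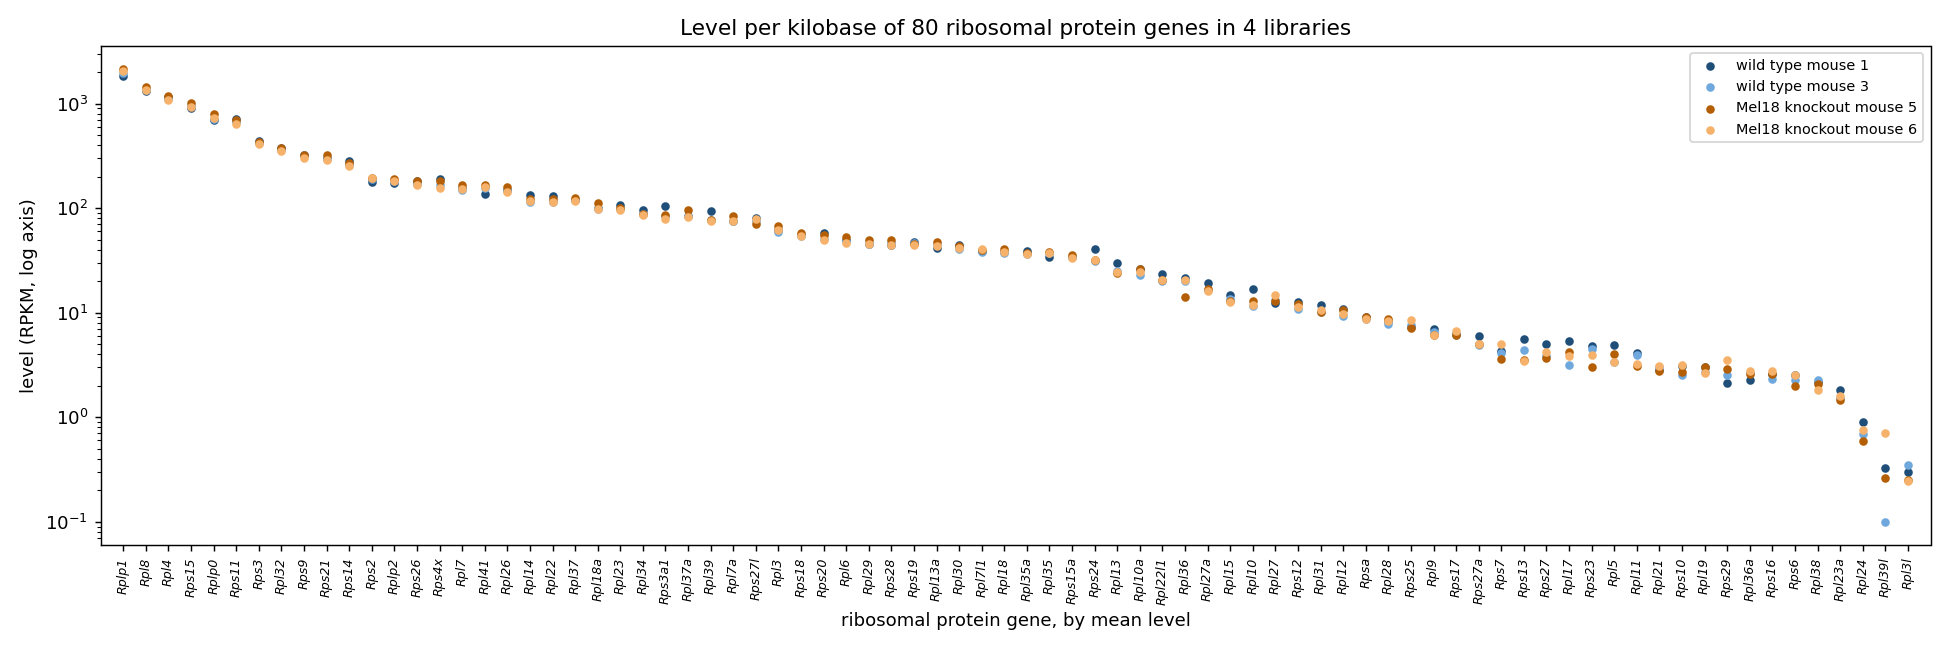
Level of 80 of the 82 ribosomal protein genes in the 4 libraries (RPKM, log axis), ordered by mean level, with a point for each library. The points of a gene lie close together beside the distance from Rplp1, with a mean of 1992 RPKM, to Rpl3l, with 0.287 RPKM.

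The transcripts of members were mostly not unique in the genome. Of the 50-base stretches of a member's principal transcript, the median share also found in another, non-overlapping gene was 51.9%, with a range from 0%, as in Rpl3l and Rpl39l, to 98.6% in Rps27. Over the other 12501 protein coding genes the median was 0%. More than 50% was shared by 43 members (52.4%), against 1.71% of the others. A processed pseudogene shared a stretch with 79 members, with a median of 8 pseudogenes per member and a maximum of 120, for Rpl7a.

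Members with more shared sequence tended to have lower levels. The 43 members over 50% shared had a median of 13.4 RPKM, and 18 of them were under 10 RPKM. The other 39 had a median of 86.7 RPKM, and 7 were under 10 RPKM. Spearman's rho between level and share was -0.38 over the 82 genes (Pearson's r -0.33 with log2 level), and with 100-base stretches rho was -0.53. Genes share their libraries and gene families and are not independent replicates, so these are descriptions.

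The first 60 coding bases gave the same order. Among the 80 members compared, 54 had at least 1 pseudogene copy with identical letters, and their median level was 20.1 RPKM. The 26 with no identical copy had a median of 147 RPKM. Rps13, printed above, has 4 identical copies and was at 4.22 RPKM, while Rpl8, with no identical copy, was at 1360 RPKM. Rpl24 has 1 identical copy, Rpl23a 7 and Rps29 5. Both orders, by shared stretches and by identical copies, had exceptions. Rplp0 has 3 identical copies and was at 732 RPKM. Rplp1, with no identical copy, was an exception by shared stretches only: it shared 60% of them and was the highest member. Rpl3l and Rpl39l shared none, had no identical copy and were the lowest.

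The sources used here do not say how reads that match several places were counted, so the levels of members with such copies are uncertain, and its part in the order of levels was not tested. Dividing counts by the number of unique stretches in place of transcript length took the ratio of the 90th to the 10th percentile of the 77 members from 144 to 94.1. That division would suit only reads counted at unique places, and whether they were is not known. The 215 pseudogenes in the table that share a stretch with a member held 0.0257% to 0.0296% of the counts of a library. These comparisons were chosen after the data were seen.

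**Figure D2:**
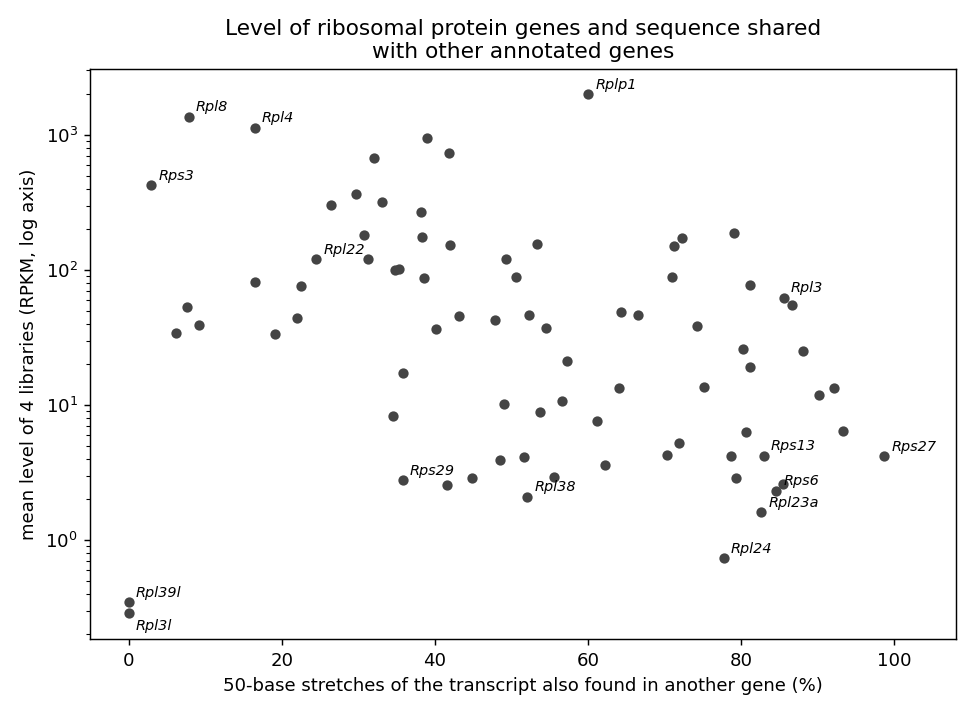
Mean level of each ribosomal protein gene (RPKM, log axis) against the percentage of its transcript's 50-base stretches that occur in another annotated gene, with a point for each of 80 of the 82 genes. Over all 82, members over 50% shared had a median of 13.4 RPKM and the others a median of 86.7 RPKM.

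Between genotypes, the ribosomal protein genes stayed close to their wild type levels. In the edgeR quasi-likelihood test with adjustment over all genes, 0 of 82 members passed a threshold of 0.05, against 21 of 15607 genes (0.135%). The lowest adjusted p of a member was 0.424. At an unadjusted p under 0.05 there were 2 members, Rps13 and Rpl11, both lower in knockout, against 8.89% of all genes. The DESeq2 Wald test and limma voom also called 0 members, and the authors' deposited table gives 0 members an adjusted p under 0.05, against 1.13% of all genes.

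The fold changes were small and went both ways. The log2 fold change, knockout minus wild type, was above 0 in 39 members and below 0 in 43. Its median was -0.0069, beside -0.0053 over all genes. It lay within 0.1 of 0 in 54 members and within 0.2 in 72. The 95% interval of a member, which is not adjusted for the number of genes, extended by a median of 0.26 on either side. A change smaller than a member's own such width cannot reach an unadjusted quasi-likelihood p of 0.05. With 2 mice a group, this width had a median of 0.45 in members under 10 RPKM and of 0.22 in the others. A change larger than its width could also fail the adjusted test, as did Rps13 at -0.51 (quasi-likelihood adjusted p = 0.424).

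Both knockout libraries lay above both wild type libraries in 9 members (10.98%, against 21.4% of all genes) and below them in 9 (10.98%, against 20.9%). The higher 9 were Rpl7l1, Rpl8, Rps2, Rpl3, Rplp0, Rps16, Rpl41, Rplp1 and Rps29. The lower 9 were Rps13, Rps23, Rpl3l, Rpl11, Rpl38, Rpl13, Rpl15, Rpl9 and Rps19. Members with low levels scattered more: the SD of the log2 fold change was 0.32 over the 25 members under 10 RPKM and 0.098 over the 57 others. The 25 include Rpl39l, at 1.14 with 3 to 26 counts, which widens the first SD. The median SE was 0.19 and 0.094 in the same order.

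**Figure D3:**
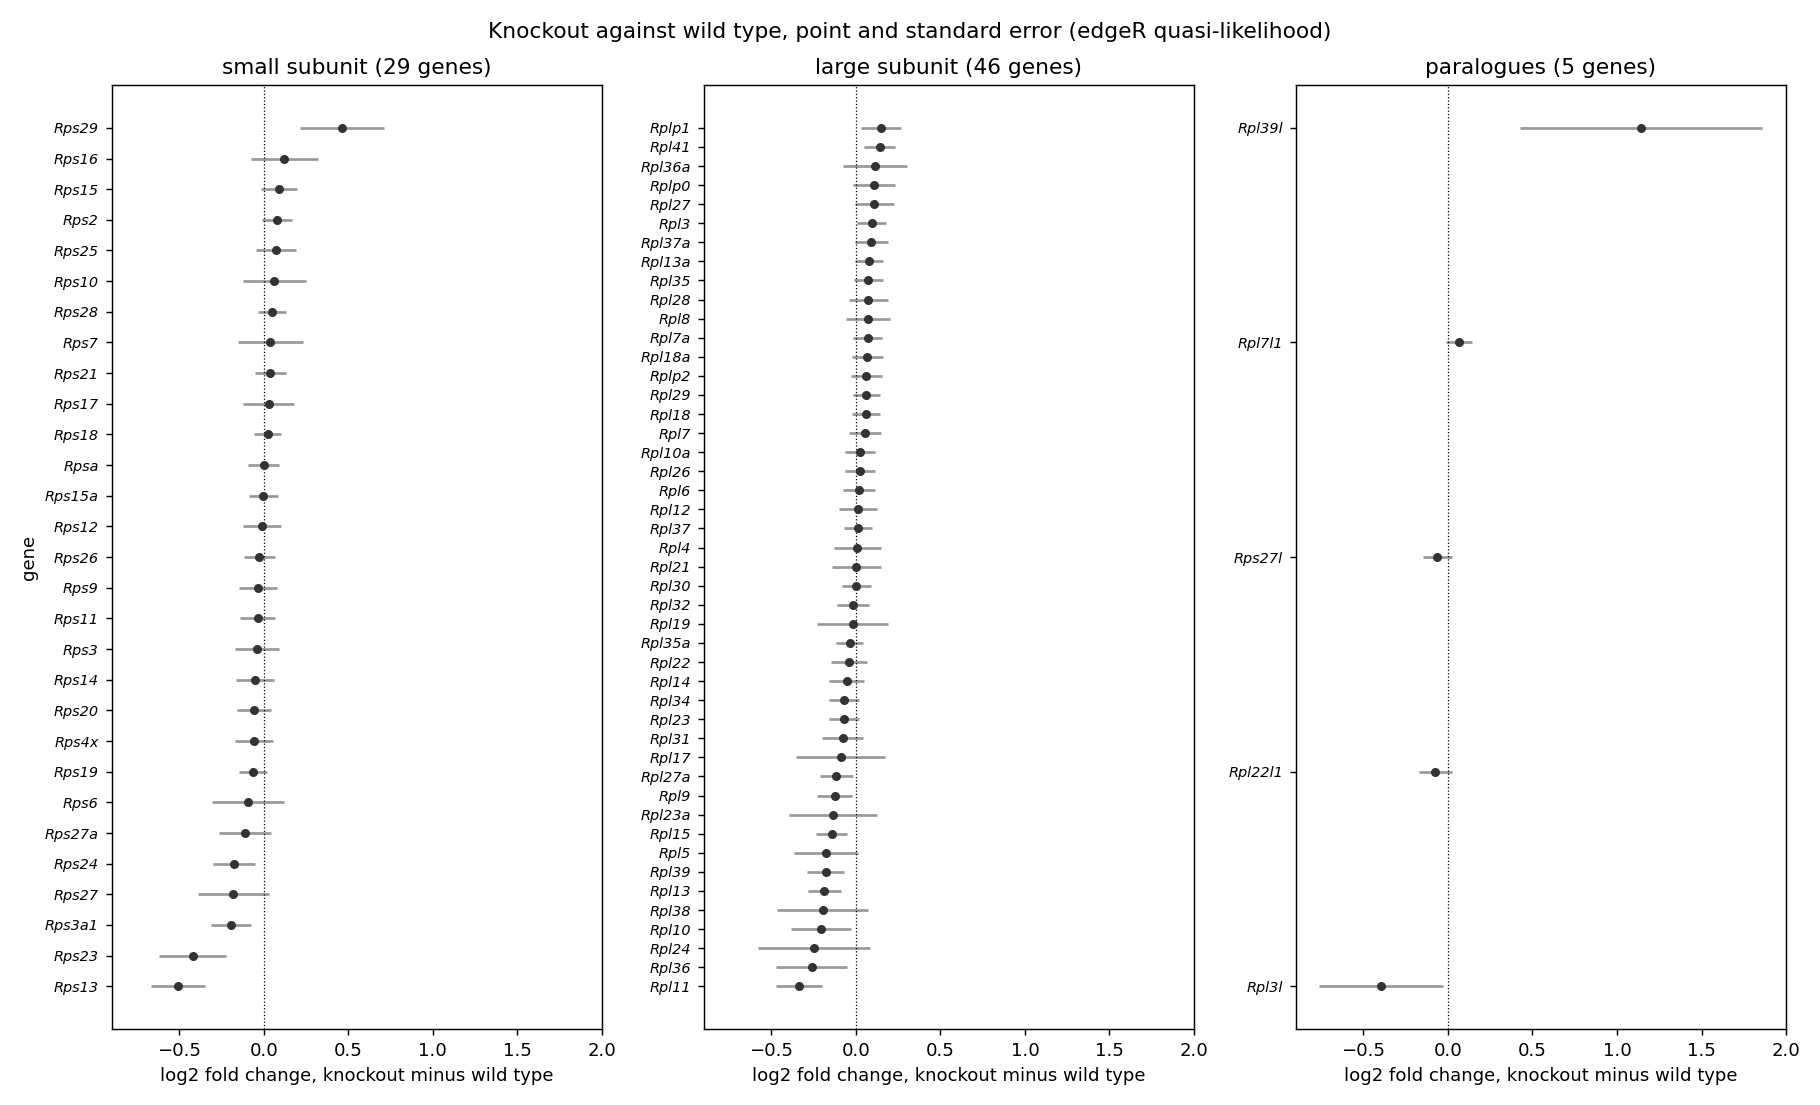
Log2 fold change, knockout minus wild type, of 80 of the 82 ribosomal protein genes in panels for the small subunit, the large subunit and the paralogues, with bars of 1 standard error from the edgeR quasi-likelihood fit. Rps13 at -0.51 and Rps29 at 0.46 stand at the ends of the small subunit, and Rpl39l at 1.14 has the widest bar.

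The libraries of a genotype differed from each other by more than the means of the genotypes did. The median member, as log2 CPM less the gene's own mean, was at 0.057 in wild type mouse 1, at -0.035 in wild type mouse 3, at 0.029 in knockout mouse 5 and at -0.041 in knockout mouse 6. Mouse 1 was the highest of the 4 libraries in 40 members (48.8%), against 31.3% of all genes. Mouse 5 was highest in 29 (35.4%), against 23.8% of all genes. Mouse 1 was also highest in 8 of 9 T and NK cell markers and in 7 of 12 stem and progenitor markers. Of 10 B and plasma cell markers, mouse 1 was highest in 4 and mouse 3 in 4. Mouse 1 was highest in 3 of 9 monocyte and dendritic markers and in 1 of 12 stroma and bone markers. It was highest in 0 of 12 neutrophil, 0 of 13 erythroid and 0 of 11 megakaryocyte markers. Mouse 5 was highest in 12 of 13 erythroid and 11 of 11 megakaryocyte markers, and in 0 of 12 neutrophil markers. The stem and progenitor markers summed to 1833, 1651, 1712 and 1621 CPM in mice 1, 3, 5 and 6. The mitochondrial share of counts was 0.835% in mouse 1 and 0.583% to 0.643% in the others. The part of any of these in the member levels was not tested.

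With wild type mouse 3 left out, so that mouse 1 alone stood for wild type and was assumed to vary like the knockout pair, 7 members passed the edgeR quasi-likelihood test, all lower in knockout. Among them were Rps13, Rpl13, Rps3a1, Rpl39, Rps24 and Rpl10, with log2 fold changes from -0.68 to -0.32, and the member median was -0.079. In the same fit 855 of all genes passed. With any other library left out, 0 members passed, and the member median was 0.036 without wild type mouse 1. Rpl13, Rps3a1 and Rps24 are named here after their values were seen.

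Rps24, a protein of the small subunit, is an example. It was at 252 CPM in wild type mouse 1, and at 196, 199 and 198 CPM in wild type mouse 3 and knockout mice 5 and 6. Mouse 1 stood apart and the other 3 libraries lay together, across genotypes. The log2 fold change over all 4 libraries was -0.18 ± 0.13 (SE; quasi-likelihood adjusted p = 0.684). Rpl10 had the same form. It joins the large subunit late and is a site of mutations in human T cell leukemia, and it was at 34.8 CPM in mouse 1 and 24.0 to 26.7 CPM in the others.

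**Figure D4:**
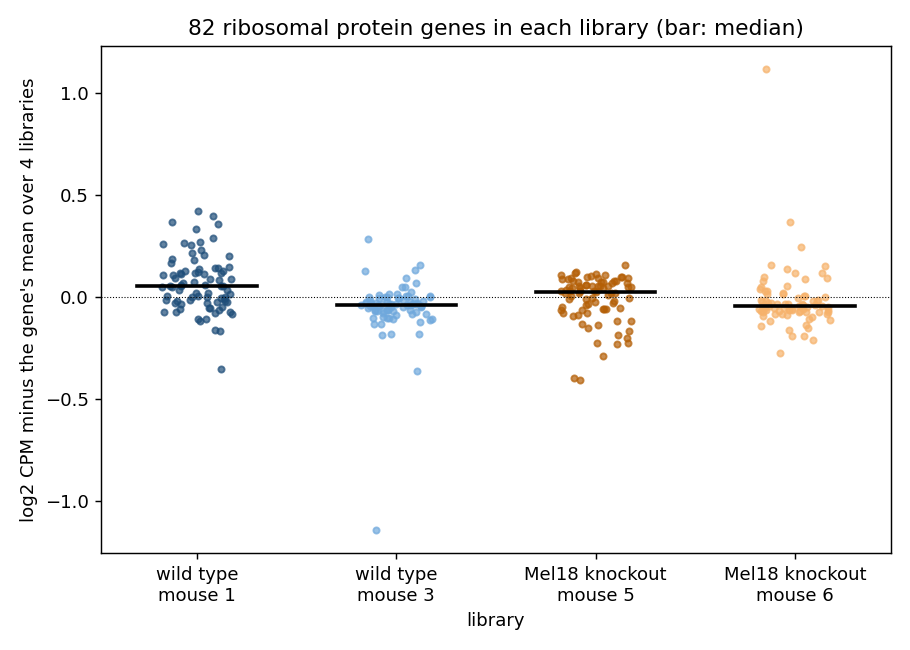
Log2 CPM of each of the 82 ribosomal protein genes less its mean over the 4 libraries, by library, with a point for each gene and a bar at the median. The medians are 0.057 and -0.035 for the wild type (mice 1 and 3), and 0.029 and -0.041 for the knockout (mice 5 and 6).

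The summed counts of small and large subunit genes were compared next. Counts of the 31 small subunit genes divided by those of the 46 large subunit genes , paralogues left out, gave ratios of 0.805 and 0.788 for the wild type (mice 1 and 3) and of 0.765 and 0.766 for the knockout (mice 5 and 6). Both knockout ratios lay below both wild type ratios. The means were 0.796 ± 0.0118 and 0.766 ± 0.000388 (SD, n = 2), with a two-sided exact permutation p of 0.333, the smallest the design allows. Per kilobase the ratios were 0.650, 0.632, 0.618 and 0.612 in the same order of mice. Such sums weigh the highest genes most, and 10 genes held 61.5% to 62.9% of the member counts of a library. The ratios thus do not describe the typical gene of a subunit. The median log2 fold change was -0.026 over the small subunit and 0.0060 over the large subunit, and 0 members passed the test in either.

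Rps13, a small subunit protein that contacts the large subunit, had the lowest p of all members. Its level was 14.98 and 11.7 CPM in the wild type and 9.54 and 9.23 CPM in the knockout, mice 1, 3, 5 and 6 in turn. Both knockout libraries were below both wild type libraries, and the wild type pair was further apart than the knockout pair. The log2 fold change was -0.51 ± 0.16 (SE; unadjusted p = 0.0147, quasi-likelihood adjusted p = 0.424). Of its 50-base stretches, 83.0% occur in other genes, so reads of its copies may be included.

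Rps23, which lies at the decoding centre, was at 6.15 and 5.72 CPM in wild type and 3.87 and 4.99 CPM in knockout (log2 fold change -0.42 ± 0.20 SE, quasi-likelihood adjusted p = 0.587). Rps29, one of the smallest ribosomal proteins, went the other way, with 1.48 and 1.77 CPM in wild type and 2.01 and 2.46 CPM in knockout. Its groups did not overlap, and its counts were few, 54, 64, 93 and 110. The log2 fold change was 0.46 ± 0.25 (SE; quasi-likelihood adjusted p = 0.611). Rps16 was at 3.25, 2.95, 3.29 and 3.47 CPM in mice 1, 3, 5 and 6, and its knockout libraries stood just above both wild type libraries.

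Rpsa, which is also found at the cell surface as a laminin receptor, was at 28.9 and 27.4 CPM in wild type and 28.5 and 27.7 CPM in knockout, and the groups overlapped. Rps14, whose loss of 1 copy underlies the anemia of the human 5q deletion syndrome, was at 683 and 618 CPM in wild type and 645 and 611 CPM in knockout. Its log2 fold change of -0.051 had a 95% interval from -0.31 to 0.21. Rps6 was at 4.02, 3.59, 3.14 and 3.99 CPM in mice 1, 3, 5 and 6, again with overlapping groups.

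Rps19, the gene most often mutated in Diamond-Blackfan anemia, was at 224 and 215 CPM in wild type and 213 and 207 CPM in knockout. Both knockout libraries were lower, by less than the distance between the wild type libraries at the nearest pair, and the log2 fold change was -0.064 ± 0.083 (SE; quasi-likelihood adjusted p = 0.816). Over the 17 members linked to that anemia in humans, 0 passed the test. Their log2 fold changes were above 0 in 9 and below 0 in 8, with a median of 0.024. The ends of this list were Rpl11 at -0.34 and Rps29 at 0.46.

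Rpl5 and Rpl11 form a particle with 5S rRNA that is built into the large subunit and, when assembly fails, binds Mdm2, the ubiquitin ligase of p53. Rpl11 was at 11.1 and 10.5 CPM in wild type and at 8.40 and 8.78 CPM in knockout. The groups were apart, and the log2 fold change was -0.34 ± 0.14 (SE; unadjusted p = 0.0444, quasi-likelihood adjusted p = 0.541). Rpl5 was at 19.1 and 13.4 CPM in wild type and 15.7 and 13.1 CPM in knockout, so its groups overlapped and mouse 1 was again the highest. Mdm2 itself was at 73.6 and 70.7 CPM in wild type and 63.0 and 64.7 CPM in knockout (log2 fold change -0.18 ± 0.072 SE, quasi-likelihood adjusted p = 0.540). Of the 8 genes listed for p53 surveillance, 0 passed the test, with a median log2 fold change of -0.033.

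The 3 stalk genes, whose proteins recruit and activate the translation factor GTPases, all had values above 0. Rplp0, the base of the stalk, was at 1157 and 1181 CPM in wild type and 1320 and 1202 CPM in knockout. Rplp1 was at 917 and 969 CPM in wild type and 1077 and 1015 CPM in knockout. Both had knockout libraries above both wild type libraries, with log2 fold changes of 0.11 ± 0.12 and 0.15 ± 0.12 (SE; quasi-likelihood adjusted p = 0.785 and 0.704). Rplp2 was at 357 and 376 CPM in wild type and 390 and 376 CPM in knockout, and its groups met at mouse 3 and mouse 6. None of the 3 passed the test.

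Other large subunit genes at the ends of the order were low in counts or close to 0 in change. Rpl36 was at 8.20 and 7.70 CPM in wild type and 5.43 and 7.84 CPM in knockout, so that knockout mouse 5 alone was low (log2 fold change -0.26). Rpl24, at 0.929 and 0.718 CPM in wild type and 0.606 and 0.784 CPM in knockout, had a log2 fold change of -0.25 ± 0.33 (SE). Rpl41, which encodes a very short peptide of the ribosome, was at 161 and 181 CPM in wild type and 192 and 185 CPM in knockout, without overlap (log2 fold change 0.14 ± 0.094 SE, quasi-likelihood adjusted p = 0.667). Rpl36a and Rpl27 had log2 fold changes of 0.11 each with overlapping groups. Rpl38 was at 1.18, 1.24, 1.13 and 0.985 CPM in mice 1, 3, 5 and 6, with both knockout libraries just below both wild type libraries, from 43 to 52 counts.

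The proteins conserved in bacteria as well as in eukaryotes, which make up the ribosome's ancient core, were compared with those found only in eukaryotes or archaea. For the 33 universal members the median log2 fold change was -0.00091, and for the 44 others it was -0.015, and 0 passed the test in either group.

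The paralogues had levels unlike their parents. Rps27l, a close relative of Rps27 that p53 can induce, was at 65.1, 61.2, 57.0 and 63.9 CPM in mice 1, 3, 5 and 6. Rps27 was at 5.25, 4.03, 3.81 and 4.39 CPM. Per kilobase Rps27l averaged 75.7 RPKM and Rps27 4.19 RPKM, so the relative was above the parent in each library. Rps27 shares 98.6% of its 50-base stretches with other genes and Rps27l 22.4%, so these 2 levels are not equally countable. The coding sequences are each 252 bases long and differ at 60, an identity of 76.2%, and capitals below mark the bases that differ in the first 60.
Rps27: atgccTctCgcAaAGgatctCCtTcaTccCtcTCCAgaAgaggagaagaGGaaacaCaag
Rps27l: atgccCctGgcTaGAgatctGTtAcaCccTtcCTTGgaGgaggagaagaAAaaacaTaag

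Rpl39l, which in mouse is a testis form of Rpl39, had the largest fold change and the fewest counts, 10 and 3 in wild type and 26 and 10 in knockout mice 6 and 5. Its levels were 0.273 and 0.0828 CPM in wild type and 0.216 and 0.582 CPM in knockout, so the groups overlapped. The log2 fold change of 1.14 ± 0.72 (SE; quasi-likelihood adjusted p = 0.652) had a 95% interval from -0.54 to 2.83. Rpl39, on the X chromosome, was at 136 CPM in wild type mouse 1 and 107 to 111 CPM in the other libraries. The 153 coding bases of the pair differ at 23, an identity of 85.0%, and their first 60 bases follow with differences in capitals.
Rpl39: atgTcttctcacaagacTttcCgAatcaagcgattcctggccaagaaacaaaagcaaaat
Rpl39l: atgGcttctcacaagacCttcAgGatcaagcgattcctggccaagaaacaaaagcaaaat

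Rpl3l, which replaces Rpl3 in heart and skeletal muscle, had 18 and 21 counts in wild type and 19 and 18 in knockout. Scaled to depth it was at 0.492 and 0.580 CPM in wild type and 0.411 and 0.403 CPM in knockout, which is within the error of so few counts (log2 fold change -0.39 ± 0.37 SE). Rpl3 was at 196 and 187 CPM in wild type and 212 and 196 CPM in knockout. Rpl22l1, which in mouse is repressed by Rpl22 in early blood cells, was at 46.1, 40.0, 41.0 and 40.8 CPM in mice 1, 3, 5 and 6, with mouse 1 highest. Rpl22 was at 381, 330, 357 and 335 CPM, highest in the same library. Rpl7l1, a relative of Rpl7, was at 135 and 133 CPM in wild type and 140 and 141 CPM in knockout, without overlap (log2 fold change 0.064 ± 0.079 SE). Rpl7 was at 418, 405, 442 and 411 CPM, and its groups overlapped.

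Ribosomal proteins are also encoded by genes that the naming rule does not reach. Rack1, a scaffold on the head of the small subunit, was at 1996 and 1958 CPM in wild type and 2200 and 2014 CPM in knockout, without overlap (log2 fold change 0.092 ± 0.13 SE). Fau, which encodes Rps30 fused to a ubiquitin-like protein, was at 2.90 and 2.84 CPM in wild type and 3.35 and 3.90 CPM in knockout (log2 fold change 0.34 ± 0.20 SE, quasi-likelihood adjusted p = 0.642).

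Genes that build or serve the ribosome, compared in the same fit, had medians above 0, unlike the ribosomal protein genes. The log2 fold change was above 0 in 71 of 93 ribosome biogenesis genes (median 0.084), in 63 of 76 mitochondrial ribosomal protein genes (median 0.072) and in 34 of 45 translation factors (median 0.062). Of 26 other mRNAs with a TOP motif, several of which are also in the translation factor list, 17 were above 0 (median 0.061). In each of these lists 0 genes passed the adjusted test, and the difference from the ribosomal protein genes was not tested.

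Both knockout libraries were above both wild type libraries in 47 biogenesis genes (50.5%) and in 39 mitochondrial ribosomal protein genes (51.3%), against 21.4% of all genes. At an unadjusted p under 0.05 there were 13 of the 93 biogenesis genes, all higher in knockout, against 8.89% of all genes (520 higher and 868 lower). Mdn1, an ATPase that remodels the pre-60S particle, was at 78.1 and 91.4 CPM in wild type and 105 and 113 CPM in knockout (log2 fold change 0.36 ± 0.098 SE, quasi-likelihood adjusted p = 0.348). Heatr1 and Utp20, factors of the small subunit processome, had log2 fold changes of 0.31 and 0.26 (quasi-likelihood adjusted p = 0.406 and 0.424). Among mitochondrial ribosomal proteins, Mrpl34 was at 45.6 and 48.3 CPM in wild type and 54.2 and 52.8 CPM in knockout (log2 fold change 0.19). All 12 neutrophil markers were lower in both knockout libraries, while 10 of 11 megakaryocyte and 10 of 12 stroma and bone markers were higher in both, with the sums given above. Their part in these medians was not tested.

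Translation factors were mixed at their ends. Eif1, which guards start codon selection, was at 129 and 132 CPM in wild type and 112 and 110 CPM in knockout (log2 fold change -0.24 ± 0.077 SE, quasi-likelihood adjusted p = 0.442). Abce1, which splits ribosomes after termination, was at 188 and 200 CPM in wild type and 222 and 221 CPM in knockout (log2 fold change 0.19). Of the regulators of TOP mRNAs and mTORC1, 17 of 18 were measured, 9 were above 0 and 0 passed. Mtor was at 84.5 and 91.6 CPM in wild type and 105 and 101 CPM in knockout (log2 fold change 0.23 ± 0.081 SE, quasi-likelihood adjusted p = 0.473).

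**Figure D5:**
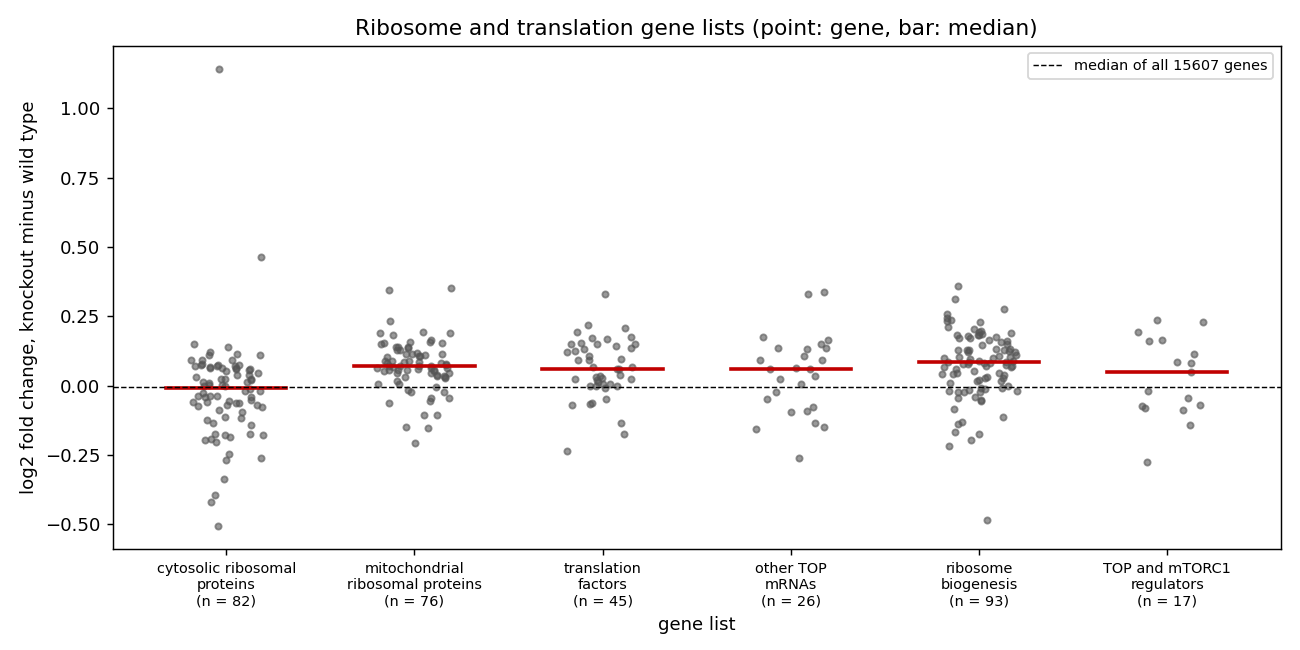
Log2 fold change, knockout minus wild type, of genes in the ribosome and translation lists, with a point for each gene, a bar at the list's median and a dashed line at the median of all 15607 genes. The bar of the 82 ribosomal protein genes is at -0.0069, while those of ribosome biogenesis and mitochondrial ribosomal proteins are at 0.084 and 0.072.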

How the data were processed

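Counts per gene were deposited by the authors as whole numbers, with log2 CPM and log2 RPKM, log2 fold changes and p-values of their own comparison, per the file headers. The submitters' processing notes name the build mm10 and the tools STAR 2.5, Trimmomatic 0.40, edgeR 3.28.1, MultiQC 0.11.5 and FastQC. The sources used here give no read counter, annotation release or strand setting, so overlapping and antisense genes cannot be told apart. A further 2 columns of per-sample values match no labelled sample and were not used.

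The counts were tested in R 4.3.3 by the robust quasi-likelihood F test of edgeR 4.0.16 (TMM factors, Benjamini-Hochberg adjustment over all 15607 genes, threshold 0.05). The filterByExpr step removed 0 genes, so all 82 members were tested and the alternative with no filter repeats the main fit. CPM and RPKM use TMM-scaled totals, and RPKM also the deposited gene length. Deviations from a gene's mean used a prior count of 2. With 2 residual degrees of freedom, edgeR gave a common biological coefficient of variation of 13.3%. The procedure was tested on simulated data. Each library is from a separate mouse per the labels, with 2 per group.

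Shared sequence was counted from GENCODE M21 transcripts as 50-base or 100-base stretches also present in a gene that does not overlap the member. Start windows and promoters are from RefSeq (GRCm38.p6). The members and lists were chosen with earlier results of these data known. Named genes were the 8 members with the largest fold change in each direction, the 5 highest and lowest per kilobase, paralogue pairs, a fixed set of well-known members, up to 3 genes with the smallest p from each other list, and Pcgf2. Some genes that this rule allowed are not reported here, and others are named as examples after their values were seen. Alternatives were DESeq2 1.42.0 size factors and Wald test, total counts, TMM without member genes, limma 3.58.1 voom, the likelihood ratio test, no robust estimation, no filter, 1 CPM in 2 libraries, removal of 289 mitochondrial, hemoglobin, antigen receptor and Y-linked genes, and each library left out.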

Additional observations from a re-analysis of the deposited data

How the results depend on the processing

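Under the other tests, scalings and filters, 0 members passed and the median log2 fold change of ribosomal protein genes stayed between -0.012 and -0.0057. Leaving out each library gave 0 to 7 members called, a member median from -0.079 to 0.036, and 0 to 7 calls in the other translation lists (7 without wild type mouse 3 and 1 without knockout mouse 6). Over all genes 21 passed, beside 219 with the DESeq2 Wald test, 177 with the likelihood ratio test, 4 without robust estimation, 10 at 1 CPM in 2 libraries, 38 without the mitochondrial, hemoglobin, antigen receptor and Y-linked genes, 0 with limma voom (1363 at an unadjusted p under 0.05), and 5 to 855 with a library left out. The cause was not tested. Of 59 named genes, 44 kept their direction under every one of up to 14 alternatives run for them. With a library left out, log2 fold changes that changed sign ranged from -0.46 to 0.089 (Rpl10), -0.27 to 0.0018 (Rpl23a), -0.15 to 0.068 (Rpl22), -0.37 to 0.024 (Rps27), -0.18 to 0.045 (Rps4x), -0.18 to 0.033 (Rpl22l1), -0.15 to 0.066 (Rps4l, listed as a pseudogene), -0.19 to 0.051 (Rpl36al), -0.047 to 0.037 (Rpsa), -0.13 to 0.022 (Rps14), -0.42 to 0.11 (Rpl5), -0.056 to 0.066 (Rpl4), -0.0047 to 0.11 (Rpl7), -0.15 to 0.013 (Rps27l) and -0.28 to 0.063 (Rps6). The ratio of small to large subunit counts, knockout minus wild type, was from -0.0390 to -0.0223 with each library left out. Its sign could not change, because both knockout ratios lay below both wild type ratios. No paired analysis was possible because the groups share no mouse number. With 2 mice a group, an exact test over libraries cannot pass 0.05, and members under 10 RPKM are further limited by few counts.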
